A study of Mus musculus with 2 samples.

Results

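Marrow adipogenic lineage precursors (MALPs) were followed here as the cells with a high level of Cxcl12 among Gli1-lineage cells of the mouse femoral metaphysis. The members were selected on measured values. A cell was a member when it had 200 to 6000 detected genes, at least 3000 UMIs (unique molecular identifiers, each marking 1 captured mRNA molecule), at most 10% of its UMIs from mitochondrial genes, no UMI of Ptprc (CD45, a marker of blood cells), less than 5 UMIs of Acan (aggrecan of cartilage) and at least 100 UMIs of Cxcl12 per 10000 UMIs. By this rule 232 of 3428 deposited barcodes were members, 149 of 1286 in the vehicle library and 83 of 2142 in the teriparatide library.

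The cells came from Gli1-CreERT2; Ai9 mice of 1 month of age on a mixed background, in which tamoxifen-activated Cre labels cells that express Gli1, and their descendants, with tdTomato. All mice of both groups carried these alleles and received tamoxifen on 3 days. They then received 3 daily intraperitoneal injections of either vehicle or teriparatide, a fragment of parathyroid hormone used to build bone, at 400 ng per g of body weight, and were killed on the day after the last one. About 5 mm of the metaphysis below the growth plate was digested with collagenase, and tdTomato-positive cells without CD31, CD45 or Ter119 were sorted and sequenced as 1 library per condition. The study's methods give males and females in each group, and the mice of a condition were taken as pooled. A cell without Gli1 at harvest can still carry the label from Gli1 expression at the time of tamoxifen.

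MALPs are stromal cells of the bone marrow that express adipocyte genes such as Adipoq but hold no lipid droplets. They are known as a main marrow source of the chemokine Cxcl12 and of Kit ligand, which retain and sustain hematopoietic stem cells, and they are thought to give rise to marrow adipocytes. They overlap the cells described elsewhere as Lepr-positive or Cxcl12-abundant reticular cells.

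With 1 library per condition there was no replicate, no test between conditions was possible and no p-value is given. Levels are UMIs per 1000000 UMIs (CPM) over the summed members of a library, with exact 95% Poisson intervals. Pairs of values have the vehicle library first and the teriparatide library second. Log2 ratios are of the teriparatide to the vehicle level, with exact conditional binomial 95% intervals. All intervals cover counting error only, not the difference between mice or between cells. The 3′ tags count molecules whatever the length of the transcript, so no level was divided by length. The members held 1821247 and 1153060 UMIs, with medians of 11812 and 13697 UMIs and of 3754 and 4055 genes per cell. A gene at 0 UMIs could still have had up to 1.65 and 2.60 CPM, the level of 3 counts. The sexes were unequally present, which touches every comparison of the libraries. Of the vehicle members 58 were male by a UMI of a Y-linked gene and 69 female by Xist, whereas of the teriparatide members 64 were male and 6 female. For many genes the ratio in male cells alone is therefore also given.

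Cxcl12 (chr6:117168535-117181367; GENCODE vM21, GRCm38) set the members apart by the rule, and the threshold lay in a sparsely filled range rather than at a gap. Among the Ptprc-negative cells below the Acan limit, 177 and 308 had less than 1 UMI of Cxcl12 per 10000. From 10 to 50 lay 11 and 8 cells, from 50 to 100 just below the threshold 7 and 11, from 100 to 150 just above it 14 and 13, and from 200 to 300 lay 74 and 39. The vehicle members with the lowest values had 106, 107 and 108 UMIs per 10000, and those of the teriparatide library 111, 114 and 118. The nearest vehicle cells outside had 98.7, 96.2 and 94.7, and the nearest teriparatide cells 94.1, 84.8 and 79.4. The median member had 254 and 230 UMIs of Cxcl12 per 10000.

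**Figure D1:**
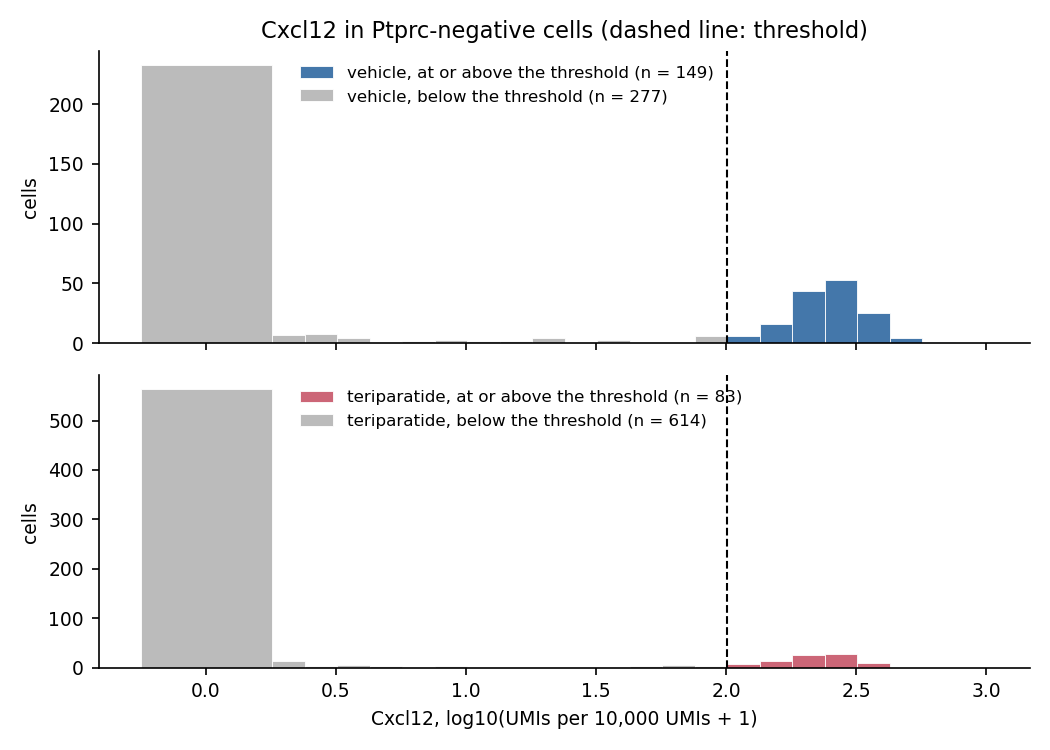
Histograms of Cxcl12 per cell, as log10 of UMIs per 10000 UMIs plus 1, in Ptprc-negative cells of the vehicle (top) and teriparatide (bottom) library, with the dashed line at the threshold of 100. The 149 and 83 cells at or above it are the members by the rule, and among cells below the Acan limit 7 and 11 lay from 50 to 100 and 14 and 13 from 100 to 150.

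The 5 markers that the rule did not use were highest in the members. These are Lepr (leptin receptor, chr4:101717404-101815352), Adipoq (adiponectin, chr16:23146536-23158028), Kitl (Kit ligand, chr10:100015630-100100416), Esm1 (endocan, a secreted proteoglycan, chr13:113209659-113218098) and Lpl (lipoprotein lipase, chr8:68880491-68907448). The vehicle members had 1110 CPM of Lepr (1062 to 1159), 1218 CPM of Kitl (1168 to 1269.6), 1719 CPM of Esm1 (1659 to 1779.9), 3135 CPM of Adipoq (3054 to 3218) and 3532 CPM of Lpl (3446 to 3619). The teriparatide members had 826.5, 1303, 1468, 1132 and 1735 CPM in the same order. A UMI of Lepr was seen in 98.0% and 97.6% of the members and in 0% and 1.06% of the Ptprc-positive cells, blood cells that should lack it and whose median depths were 8987 and 13076 UMIs. With every cell thinned to 3000 UMIs the shares of members were 90.6% and 86.7%.

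For comparison the other Ptprc-negative cells were split by single genes into a chondrocyte-type class (Acan at least 5 per 10000), an osteoblast-type class (Col1a1 at least 500 per 10000), a preosteoblast-type class (Postn, Aspn and Tnn together at least 5 per 10000) and the unclassified rest. The preosteoblast-type class had only 20 and 24 cells. It held the next highest level of Lepr in both libraries, at 105 and 87.9 CPM, and of Lpl, at 183 and 342 CPM. Esm1 was at 0 UMIs in the preosteoblast-type cells of both libraries and at 1.10 CPM or less in the osteoblast-type, chondrocyte-type and Ptprc-positive cells. Adipoq was at 2.51 CPM or less in the preosteoblast-type, osteoblast-type and chondrocyte-type cells. The unclassified cells, which include those just below the threshold, held 63.4 and 5.17 CPM of Adipoq and 668 and 285 CPM of Cxcl12. They are a mixed class of 97 and 222 cells with 1166861 and 2901072 UMIs. Over both libraries 575367 of these UMIs were of Hbb-bs and 423733 of Hba-a1, hemoglobin genes, and 6796 of S100a8, a neutrophil gene. The ratios given below for the unclassified cells are therefore not those of stroma alone.

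**Figure D2:**
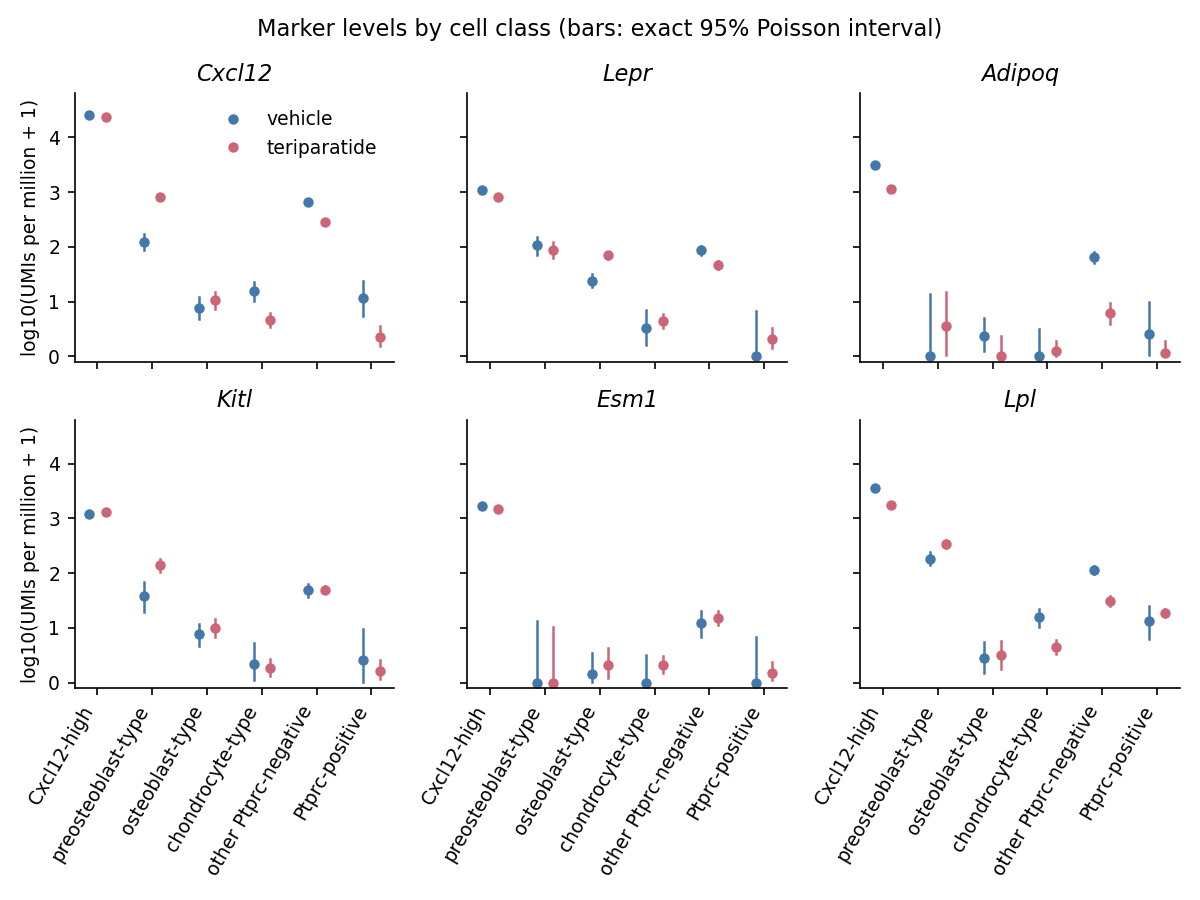
Levels of Cxcl12, Lepr, Adipoq, Kitl, Esm1 and Lpl, as log10 of CPM plus 1, summed over the cells of each class of the vehicle (blue) and teriparatide (red) library, with exact 95% Poisson intervals. The Cxcl12-high cells lie highest in all 6 panels, by the rule itself for Cxcl12, and within them Adipoq, at 3135 and 1132 CPM, has the widest gap between the libraries.

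The genes that lead the members were ranked by their level over that in all other Ptprc-negative cells, taking the library with the smaller gap, out of 1475 genes with at least 100 CPM in the members of both libraries. The cells were chosen on Cxcl12, so the ranking is a description. Esm1 came first, with 2.58 and 3.73 CPM in the other cells, followed by Adipoq and by Cbln1, a secreted protein best known for organizing synapses in the cerebellum. Kng1 and Kng2, the kininogens from which kinins are cut, had 1042 and 1018 CPM and 1016 and 1111 CPM. Hp (haptoglobin, which binds free hemoglobin) had 5195 and 4649 CPM, Trf (transferrin, the iron carrier) 2624 and 1712 CPM and Igfbp3, a carrier of insulin-like growth factors, 473 and 399 CPM. The 20 genes also held Cxcl12 and Kitl, Vcam1 (an adhesion molecule for blood cells), Vegfc (a lymphatic growth factor), Il1rn (the interleukin-1 receptor antagonist) and Il7, a growth factor of lymphocyte precursors. Il7 had 230.1 and 158 CPM, against 3.69 and 0.85 CPM in the other cells. Lpl, Mgst1, Dpep1, Plpp3, Itih5 and Ms4a4d completed the 20.

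The genes of a lipid-filled adipocyte were scarce in the members. Of 12 such genes none reached 100 UMIs over both libraries, and Plin1, Cidec and Cidea (proteins of lipid droplets), the hormones Lep and Retn, and Pck1 were at 0 UMIs in both. The most abundant of the 12, the adrenergic receptor Adrb3, had 31.3 and 13.0 CPM. The regulators of adipogenesis were present. Cebpa, which drives adipocyte differentiation, had 337 CPM (310.5 to 364) and 297 CPM (266 to 330), and Pparg, the central regulator of adipogenesis, had 74.1 CPM (62.1 to 87.7) and 91.9 CPM (75.3 to 111). Ebf1 and Ebf3, factors of marrow stroma, had 791 and 905 CPM and 320 and 429 CPM. Dlk1, a marker of preadipocytes, was at 0 UMIs in all 232 members.

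Markers of other cell types that the sort could hold were counted in the members. Of 12 endothelial genes 6 were at 0 UMIs in both libraries, among them Cdh5, Tie1, Tek and Cldn5, and all 12 summed to 11.5 and 8.67 CPM, with Emcn the most abundant. Of 12 fibroblast genes Pi16, Cd34, Dpt, Clec3b and Thy1 were at 0 in both, and Fbn1, a microfibril protein, made up 969 and 1124 CPM of the sums of 1057 and 1224 CPM. The 10 chondrocyte genes summed to 113 and 209 CPM, the 18 myeloid and lymphoid genes to 109 and 304 CPM and the 11 erythroid genes to 221 and 297 CPM. By the mean of both libraries, which names the most abundant gene of a list throughout, these were led by Col11a1 (75.2 and 65.0 CPM), S100a9 (36.2 and 89.3 CPM) and Hbb-bs (69.7 and 118 CPM). In a single library Col2a1 after teriparatide (102 CPM) and Blvrb with vehicle (75.2 CPM) were above them. Of the myeloid and lymphoid genes Ptprc, by the rule, and Ccr2 were at 0 in both. The 10 osteoblast genes summed to 2180 and 1788 CPM, with Col1a1 at 814 and 1028 CPM and Ibsp at 1062 and 691 CPM, against 142360 and 116080 CPM of Col1a1 in the osteoblast-type cells. Sost and Mepe of osteocytes were at 0 in both. The 14 pericyte and smooth muscle genes summed to 708 and 1318 CPM, led by Myl9 with 323 and 559 CPM, with Cspg4 and Cnn1 at 0 in both. The 8 Schwann cell genes summed to 149 and 279 CPM, most of it Pmp22 (82.4 and 173 CPM), with Sox10, Mbp and Cdh19 at 0 in both. A single vehicle member had a Col1a1 level of 592 UMIs per 10000, within the osteoblast range. Of the barcodes 2 occurred in both libraries, neither of them in a member.

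Gli1, whose promoter drives the label, was at 0 UMIs in the members of both libraries. Of 15 genes of the hedgehog pathway 4 reached 100 UMIs. Smo, the transducer, had 110.4 and 119 CPM, Gli3, mainly a repressor, 35.7 and 37.3 CPM, the coreceptor Gas1 115 and 86.7 CPM, and Ptch1, the receptor and a target of the pathway, 51.6 and 29.5 CPM. The ligands Ihh and Shh were at 0. Pth1r, the receptor that binds teriparatide, had 132 and 145 CPM in the members, a log2 ratio of 0.13 (-0.16 to 0.42). The osteoblast-type cells had 490.3 and 529 CPM of Pth1r and the preosteoblast-type cells 687 and 452 CPM.

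The members made up a smaller share of the Ptprc-negative cells after teriparatide. They were 149 of 426 vehicle cells (35.0%, exact Clopper-Pearson interval 30.4 to 39.7) and 83 of 697 teriparatide cells (11.9%, 9.60 to 14.5). The difference was -23.1 percentage points (-28.2 to -18.0). Among male cells the shares were 30.9% (24.3 to 38.0) and 12.9% (10.1 to 16.1), and among female cells 42.1% (34.4 to 50.02) and 7.69% (2.88 to 16.0), the last from 6 of 78 cells. A share also moves with the other classes. The chondrocyte-type cells numbered 62 and 266 and the unclassified cells, a mixed class with much hemoglobin RNA, 97 and 222. The osteoblast-type cells numbered 98 and 102 and the preosteoblast-type cells 20 and 24. Without the chondrocyte-type cells, but with the unclassified ones, the members made up 40.9% (35.8 to 46.2) and 19.3% (15.6 to 23.3). A loss of members and a gain of other sorted cells cannot be told apart from these shares. The mitochondrial limit removed 55.8% and 40.2% of all barcodes, and its part in the shares was not tested beyond a wider limit of 20%.

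Within the members, 4666 genes had at least 100 UMIs over both libraries and were compared. A gene counted as higher or lower when its levels differed at least 2-fold. By this rule 84 genes were higher after teriparatide, 1.80% of those compared, and 84 were lower, also 1.80%. The median log2 ratio of all genes was -0.09. With the ratios centred on that median 110 genes were higher and 63 lower, and with levels scaled without ribosomal and mitochondrial genes 114 and 61. In male cells alone 3024 genes were compared, of which 87 (2.88%) were higher and 73 (2.41%) lower, and in female cells alone 1636, of which 57 (3.48%) were higher and 149 (9.11%) lower. In the identity list of 18 MALP genes none was higher and 2 were lower, Adipoq and Lpl, with a list median of -0.16. At a Cxcl12 threshold of 200, in male cells and with both other scalings 1 of the list was lower.

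Adipoq, the gene of the adipocyte hormone adiponectin, fell from 3135 CPM (3054 to 3218) to 1132 CPM (1071 to 1195), a log2 ratio of -1.47 (-1.56 to -1.38). In single cells the lowest, median and highest vehicle members had 0, 27.8 and 85.7 UMIs per 10000, and the teriparatide members 0, 6.44 and 53.3. The ranges overlapped, but the upper quartile of the teriparatide members, 18.8, lay near the lower quartile of the vehicle members, 18.4. Adipoq was at 0 UMIs in 1 of 149 and in 14 of 83 members. With every cell thinned to 3000 UMIs a UMI of Adipoq was seen in 97.3% (93.3 to 99.3) and 69.9% (58.8 to 79.5) of the members and in 0% of the Ptprc-positive cells of either library. The log2 ratio was -1.31 (-1.41 to -1.20) in male cells and -1.54 in female cells, the same direction in both sexes.

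Lpl, which frees fatty acids from lipoproteins, also fell, from 3532 to 1735 CPM (1660.2 to 1813), a log2 ratio of -1.03 (-1.10 to -0.95). Its median member had 32.3 and 13.7 UMIs per 10000. In male cells alone the ratio was -0.81, short of 2-fold, as it was with both other scalings (-0.93). The other markers differed by less. Lepr had a log2 ratio of -0.43 (-0.54 to -0.31), with -0.24 in male cells, Vcam1 of -0.41 (-0.50 to -0.31), Esm1 of -0.23 (-0.31 to -0.14), Kitl of 0.10 (0.00 to 0.19) and Pdgfrb, a receptor of perivascular stroma, of 0.11 (-0.06 to 0.27). The median member had 9.90 and 7.87 UMIs of Lepr per 10000, 15.2 and 13.0 of Esm1, and 11.1 and 13.3 of Kitl. The ranges of these 3 genes overlapped over most of their width.

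**Figure D3:**
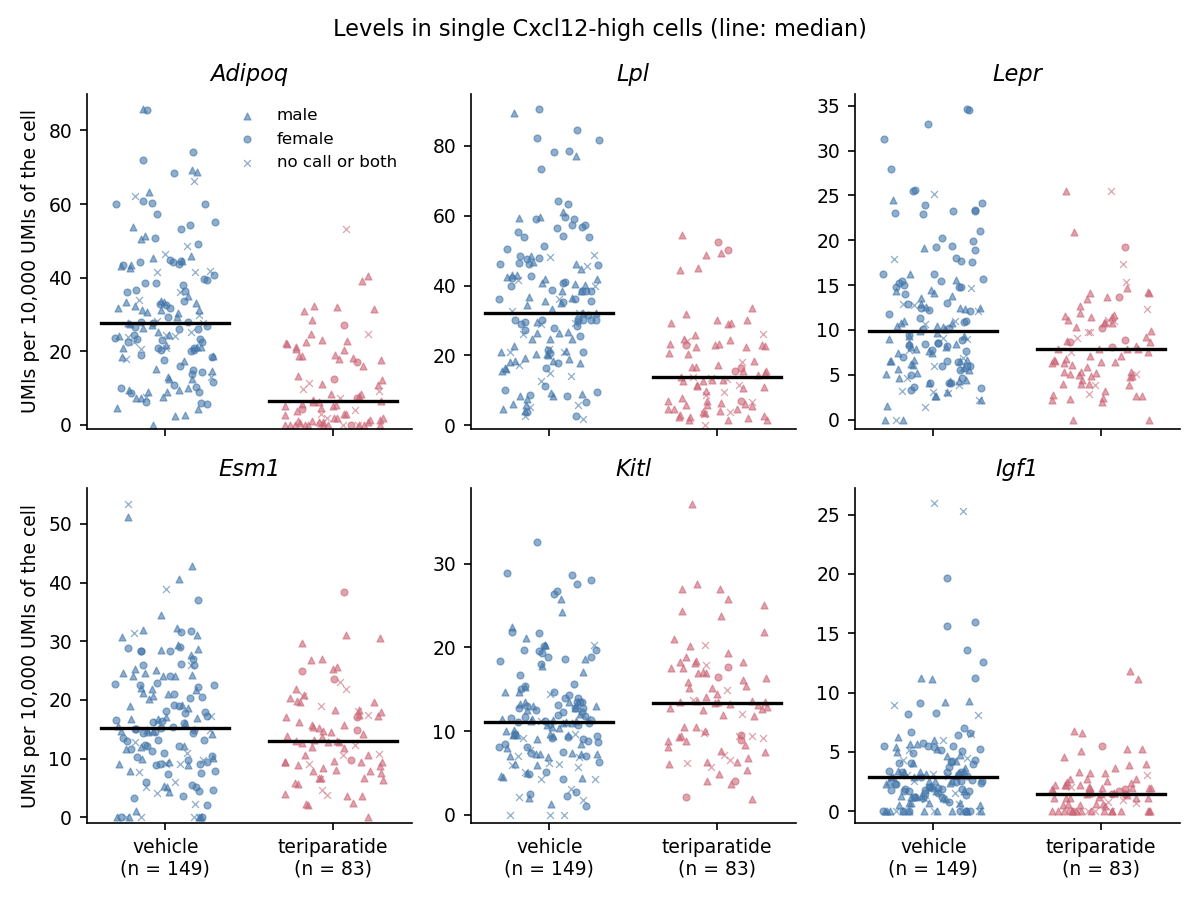
Levels of 6 genes in each of the 149 vehicle and 83 teriparatide members, as UMIs per 10000 UMIs of the cell, with male cells as triangles, female cells as circles, cells with no call or both as crosses, and the median as a line. The median of Adipoq is 27.8 with vehicle and 6.44 with teriparatide, and that of Kitl 11.1 and 13.3.

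Across single cells thinned to 3000 UMIs, Adipoq ran with Lpl (Spearman's rho 0.37 over 149 vehicle and 0.50 over 83 teriparatide cells). It also ran with Igfbp4 (0.25 and 0.56), Cxcl14 (0.24 and 0.47) and Hp (0.34 and 0.44). The coefficient with Cxcl12 was 0.38 and 0.39, but the members were selected on Cxcl12, so nothing is drawn from it. With Lepr and Kitl the coefficients were 0.05 and 0.10 and 0.05 and 0.08. Other genes of the identity list were at or below 0 in part, with 0.03 and -0.31 for Pdgfrb, -0.01 and -0.15 for Pdgfra, -0.14 and -0.20 for Ebf3 and -0.08 and -0.09 for Foxc1. With Runx2, Alpl and Spp1, genes of the osteoblast lineage, they were -0.06, -0.01 and -0.16 with vehicle and 0.01, 0.24 and -0.04 with teriparatide, from at most 1.90 UMIs per thinned cell. With Col1a1 they were -0.02 and -0.35. These coefficients are descriptions, since the cells of a library share their preparation.

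Among 16 lipid and adipokine genes compared, none was higher and 2 were lower, against 1.80% of all genes each way. These were Adipoq and Lpl again, and the list median was -0.11. Angptl4, an inhibitor of Lpl, had 451 and 232 CPM, a log2 ratio of -0.96 (-1.16 to -0.76), and Apoe, which carries lipid in lipoproteins, 3820 and 2168 CPM, a ratio of -0.82 (-0.88 to -0.75). In male cells these were -0.88 and -0.50. Of 11 adipogenic regulators 1 was lower and none higher, against the same 1.80% of all genes. This was Cebpb, an early factor of adipogenesis that acute stress also induces. It had 631 CPM (595 to 668) and 207 CPM (182 to 235), a log2 ratio of -1.61 (-1.81 to -1.40) and of -1.19 (-1.45 to -0.94) in male cells. Its lowest, median and highest members had 0, 3.81 and 38.5 UMIs per 10000 with vehicle and 0, 1.31 and 21.3 with teriparatide. The ratio of Cebpb was 0.65 (0.24 to 1.06) in the preosteoblast-type, 0.51 (0.30 to 0.72) in the osteoblast-type, 0.04 (-0.10 to 0.19) in the chondrocyte-type, -0.41 (-0.61 to -0.21) in the unclassified and -0.49 (-0.58 to -0.40) in the Ptprc-positive cells. Cebpa and Pparg had log2 ratios of -0.18 (-0.38 to 0.01) and 0.31 (-0.07 to 0.69) in the members, Ebf3 of 0.43 (0.25 to 0.60) and Tcf7l2, a Wnt effector, of 0.63 (0.39 to 0.86).

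Of 20 hematopoietic niche factors compared, none was higher and 1 was lower, against 1.80% of all genes each way. This was Ptn (pleiotrophin), with 80.2 and 34.7 CPM and a log2 ratio of -1.21 (-1.75 to -0.70). In male cells, with only 45 and 22 UMIs, the ratio of Ptn was -1.23 (-2.04 to -0.46). Igf1, a growth factor of bone and marrow, had 371 CPM (344 to 400.2) and 196 CPM (171 to 223), a log2 ratio of -0.92 (-1.14 to -0.70) and of -0.53 (-0.81 to -0.25) in male cells. The ratio of Igf1 was also below 0 in the preosteoblast-type (-1.03), chondrocyte-type (-1.86) and unclassified cells (-2.61). The chondrocyte-type cells had 659 and 182 CPM of Igf1, with vehicle above the members. Fgf7, an epithelial growth factor, had 228 and 142 CPM and Bmp4, a bone morphogenetic protein, 270 and 483 CPM, with log2 ratios of -0.68 and 0.84. In male cells they were -0.24 (-0.60 to 0.12) and 0.32 (0.11 to 0.53). Thpo, thrombopoietin, was at 0 UMIs in both libraries.

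Of 19 genes that signal to the osteoclast, 5 reached 100 UMIs and none differed 2-fold, against 1.80% of all genes each way. At a minimum of 20 UMIs per gene 12 were compared. Of these 2 were higher and 4 lower, against 3.46% and 3.53% of all genes there. At a Cxcl12 threshold of 200, at a mitochondrial limit of 20% and in thinned cells 1 was lower, against 2.23%, 1.86% and 3.07% of all genes. Tnfsf11 (RANKL, the osteoclast differentiation factor, chr14:78277445-78308043) had 698 CPM (661 to 738) and 365 CPM (331 to 402), a log2 ratio of -0.94 (-1.10 to -0.78) and of -0.69 (-0.90 to -0.49) in male cells. A UMI of Tnfsf11 was seen in 135 of 149 and in 75 of 83 members. In the other classes Tnfsf11 was lower in level, with 27.1 and 85.4 CPM in the preosteoblast-type cells and 0 and 3.30 CPM in the osteoblast-type cells. Csf1 (M-CSF), which keeps osteoclast precursors alive, had 337 and 437 CPM in the members, a log2 ratio of 0.38 (0.20 to 0.55). Il34, another ligand of the M-CSF receptor, had 127 and 107 CPM, and Il1rn, the most abundant of the list, 1276 and 1388 CPM.

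Among 13 genes of the PTH receptor and cAMP response compared, none was past 2-fold, against 1.80% of all genes each way, and the list median was -0.39. Fos, an immediate early gene, came closest, with 1623 and 813 CPM and a log2 ratio of -0.998 (-1.11 to -0.89), followed by Tnfsf11, by the phosphatase Dusp1 (340.4 and 180.4 CPM, -0.92) and by Junb, a partner of Fos (673 and 375 CPM, -0.84). Areg and Ptgs2 were at 0 UMIs in both. That none of the list was past 2-fold did not hold under every alternative. At Cxcl12 thresholds of 50 and 200, 1 and 2 of its genes were lower, against 1.78% and 2.23% of all genes. At a mitochondrial limit of 20%, without the tenth of the members with most UMIs and in thinned cells 1 was lower. The shares of all genes there were 1.86%, 2.07% and 3.07%. In male cells 1 of 10 was higher, against 2.88% of all genes. In female cells 4 of 10 were lower, against 9.11%. In the IGF axis 12 genes were compared, of which 1 was higher and none lower, against 1.80% of all genes each way. This was the receptor Igf1r, with 50.5 and 110.1 CPM and a log2 ratio of 1.12 (0.73 to 1.53). In male cells it was at 0.92 (0.41 to 1.43). The binding protein Igfbp7 had 3294 and 2063 CPM, Igfbp4, the most abundant, 7627 and 6845 CPM, and Pappa, a protease that cleaves Igfbp4, 463 and 668 CPM.

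Of 18 genes of the osteoblast lineage compared, against 1.80% of all genes each way, none was higher and 3 were lower. Of these Bglap and Bglap2, the osteocalcin genes, rested on 1 cell. A single vehicle member held 86.7% of the vehicle members' UMIs of Bglap and 84.1% of those of Bglap2, and without the member in the osteoblast range of Col1a1 the log2 ratio of Bglap was 0.34. Reads of these paralogs may also be split by the counting. The other gene was Omd, osteomodulin, with 96.1 and 37.3 CPM and a log2 ratio of -1.37 (-1.88 to -0.88), but of -0.37 (-1.02 to 0.28) in male cells. Runx2, the master regulator of osteoblasts, had 178 and 283 CPM (0.66, 0.44 to 0.89), Ibsp (bone sialoprotein) 1062 and 691 CPM (-0.62) and Wif1, a secreted Wnt antagonist, 109 and 57.2 CPM (-0.93). In male cells Runx2 was at 0.45 and Ibsp at -0.06. Col1a1, the main collagen of bone, had a ratio of 0.34 in all members but of 1.79 in males and -0.74 in females. The same member in the osteoblast range held 51.9% of the vehicle members' UMIs of Col1a1, and without it the ratio was 1.38. Without it 16 genes of the list were compared, of which 1 was higher and 1 lower, against 1.83% and 1.79% of all genes there. The most abundant, Sparc (osteonectin), had 4037 and 3447 CPM.

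Matrix and basement membrane genes had a list median of 0.32 over 39 genes, of which 29 had a ratio above 0. Of the 39, 2 were higher and 1 lower, against 1.80% of all genes each way. In male cells 6 of 36 were higher, against 2.88% of all genes there, and 1 lower, against 2.41%. With both other scalings 4 of 39 were higher, against 2.36% and 2.44% of all genes. Fn1 (fibronectin, chr1:71585520-71653200) had 122 CPM (106 to 139) and 386 CPM (351 to 423.5), a log2 ratio of 1.66 (1.43 to 1.90), with a UMI in 75 of 149 and 64 of 83 members. Its median member had 0.413 and 2.35 UMIs per 10000. With cells thinned to 3000 UMIs the shares with a UMI of Fn1 were 23.5% (16.9 to 31.1) and 49.4% (38.2 to 60.6) of the members and 15.8% (7.48 to 27.9) and 25.2% (20.9 to 29.9) of the Ptprc-positive cells, whose levels were 403 and 642 CPM, above those of the members. The part of free RNA in the members' Fn1 was not tested. The ratio of Fn1 was also above 0 in the preosteoblast-type (0.91) and osteoblast-type cells (1.22), at 0.03 in the chondrocyte-type, -0.57 in the unclassified and 0.67 in the Ptprc-positive cells. Col3a1, a fibrillar collagen, had 301 and 666 CPM (log2 ratio 1.14, 0.98 to 1.30). Mmp13, a collagenase and the most abundant gene of the list, had 2574 and 5019 CPM (0.96, 0.91 to 1.02), with 1.65 in males and 0.11 in females, and Mmp2, a gelatinase, had 53.3 and 104 CPM (0.97, with 1.96 in males). Col3a1 was at 1.65 in males and 0.18 in females. Lum (lumican, a small proteoglycan of collagen fibrils) was lower, with 79.1 and 30.4 CPM (-1.38, -1.96 to -0.84), with -1.94 in males. The summed level of the list was 22272 and 26654 CPM, and its median was 0.20 in males and 0.34 in females. In the other classes the median was 0.33 (preosteoblast-type), 0.51 (osteoblast-type), -0.17 (chondrocyte-type), -0.82 (unclassified) and 0.67 (Ptprc-positive). In the pericyte and smooth muscle list 6 genes were compared, all with a ratio above 0, and Tagln, an actin-binding protein of smooth muscle, was higher with 129 and 378 CPM (1.55, 1.32 to 1.79). A single cell held 30.2% of the vehicle members' UMIs of Tagln, and another 20.9% of those of the teriparatide members.

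In the BMP and TGF-beta list 21 genes were compared, with a median of 0.14. Smad7, an inhibitor of TGF-beta signaling, was higher (52.2 and 108 CPM, log2 ratio 1.06). The ligand Tgfb3 was lower (60.9 and 29.5 CPM, -1.05), against 1.80% of all genes each way. In male cells Smad7 and Tgfb3 were at 1.02 and -0.97, and Tgfb3 was also short of 2-fold with both other scalings. At a Cxcl12 threshold of 50 none of the list was higher and 1 lower, against 1.69% and 1.78% of all genes. At 200, 2 were higher and none lower, against 1.82% and 2.23%. At a mitochondrial limit of 20% none was past 2-fold. Of 16 Wnt genes compared none passed 2-fold in either direction, and the median was 0.01. Sfrp4, a secreted Wnt antagonist, was the most abundant with 635 and 459 CPM, and the receptor Fzd7 had 25.8 and 47.7 CPM (0.89). Among 31 hormone and growth factor receptors 1 was higher (Igf1r) and 1 lower (Vdr, the vitamin D receptor), against 1.80% of all genes each way. Vdr had 88.4 and 22.5 CPM, a log2 ratio of -1.97 (-2.63 to -1.37), but of -0.71 (-1.59 to 0.14) in male cells. The estrogen receptor Esr1 had 49.4 and 84.1 CPM and the sphingosine receptor S1pr1 103 and 163 CPM.

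Genes of protein folding in the endoplasmic reticulum (ER) and of ER stress lay low together. Of 28 compared, 24 had a ratio below 0, 6 were lower, against 1.80% of all genes, and none was higher, and the list median was -0.72. Hspa5 (BiP, the main ER chaperone, chr2:34771970-34777547) had 2716 CPM (2641 to 2792) and 953 CPM (898 to 1011). Its log2 ratio was -1.51 (-1.61 to -1.42). In single cells the lowest, median and highest vehicle members had 2.20, 23.4 and 103 UMIs per 10000 and the teriparatide members 0, 7.67 and 33.0. The ranges overlapped, but the upper quartile of the teriparatide members, 11.8, was under the lower quartile of the vehicle members, 16.1. The other 5 genes were Sdf2l1 (249 and 67.6 CPM, -1.88), Manf (712 and 237 CPM, -1.59), Hyou1 (107 and 45.1 CPM, -1.25), Creld2 (97.7 and 45.1 CPM, -1.12) and Dnajb9 (127 and 61.6 CPM, -1.04), ER-resident or secreted proteins that the unfolded protein response induces. In male cells 5 of 26 genes of the list were lower, against 2.41% of all genes there, and Dnajb9, at -0.72, was not among them. Of its transcription factors, Xbp1 had 277 and 164 CPM (-0.76) and Atf4 212 and 167 CPM (-0.35). The list median was -0.68 in males and -0.64 in females, and the summed level of the list was 15411 and 8986 CPM. P4hb, a disulfide isomerase that also serves collagen hydroxylation, went the other way with 303 and 395 CPM and a log2 ratio of 0.39 (0.20 to 0.57).

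Many ER chaperone genes share an ER stress response element in the promoter, read as CCAAT and CCACG separated by 9 bases, to which the factors NF-Y and Atf6 bind. It was searched on both strands in a window from 250 bases before to 50 after the start of each gene (RefSeq, GRCm38.p6). It was found in 37 of 32851 promoters (0.113%). Of the genes of the list 25 were matched to a promoter, and 7 of these held it, namely Hspa5, Hsp90b1, Calr, Pdia6, Canx, Dnajc3 and Creld2. Their log2 ratios were -1.51, -0.85, -0.80, -0.84, -0.71, -0.63 and -1.12. Sdf2l1, Manf, Hyou1 and Dnajb9, which were also lower in the members, are not among these 7. Whether they were among the 25 genes matched to a promoter is not given here. A link between the element and the ratio of a gene was not tested. A match is a description of the sequence, and binding was not measured. The element, identical at its fixed bases by the search, is shown in its context. Stretches around it are given for Hspa5 and Creld2, the 2 with the lowest ratios of the 7 genes that held it. Stretches for Pdia6 and Dnajc3, with ratios nearer to 0, are given as well. They read 5′ to 3′ in the direction of the gene, with the element in capitals, and in Creld2 it lies on the opposite strand. By RefSeq the stretch of Hspa5 lies before the start of the gene, whereas the GENCODE gene given above begins further upstream and includes it. The stretches are at chr2:34772000-34772068 (+) for Hspa5, chr12:17266466-17266534 (+) for Pdia6, chr14:118937802-118937870 (+) for Dnajc3 and chr15:88819495-88819563 (+) for Creld2.
Hspa5: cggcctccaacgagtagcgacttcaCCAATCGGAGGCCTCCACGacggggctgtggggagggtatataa
Pdia6: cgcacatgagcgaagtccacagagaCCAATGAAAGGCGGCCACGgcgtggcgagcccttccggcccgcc
Dnajc3: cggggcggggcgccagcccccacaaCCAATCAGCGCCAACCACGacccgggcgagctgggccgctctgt
Creld2: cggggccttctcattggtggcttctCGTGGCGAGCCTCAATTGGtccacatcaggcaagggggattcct

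Low ER chaperones were also measured outside the members. Hspa5 had a log2 ratio of -1.07 (-1.34 to -0.81) in the preosteoblast-type, -0.70 (-0.81 to -0.58) in the osteoblast-type, -1.23 (-1.30 to -1.15) in the chondrocyte-type, -1.30 (-1.42 to -1.17) in the unclassified and -0.37 (-0.54 to -0.18) in the Ptprc-positive cells. In the same order the medians of the list were -0.72, -0.50, -0.73, -0.65 and -0.48. The immediate early and heat shock list, genes that tissue dissociation also raises, had a median of -0.86 in the members. Of its 27 genes compared 26 had a ratio below 0, 7 were lower, against 1.80% of all genes, and none was higher. Hspa1a, an inducible heat shock protein, had 782 and 278 CPM (-1.49, -1.67 to -1.31), though its counts may be split with its near copy Hspa1b. The cochaperones Hsph1 and Dnajb1 had 88.4 and 26.9 CPM (-1.72) and 147 and 57.2 CPM (-1.36), the transcription factor Klf2 114 and 41.6 CPM (-1.46), and Hspa8, the most abundant, 2002 and 1033 CPM (-0.96). The median of the list was -0.59 in male and -1.54 in female members, and -1.09 in the preosteoblast-type, -1.19 in the osteoblast-type, -0.21 in the chondrocyte-type, -0.42 in the unclassified and -0.64 in the Ptprc-positive cells. The preparation of each library and its treatment cannot be told apart in this design.

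Of 22 interferon response genes compared, 4 were lower, against 1.80% of all genes, and none higher, with a median of -0.66. Bst2 (tetherin) had 1289.8 and 610 CPM (log2 ratio -1.08), Isg15, a ubiquitin-like interferon product, 344 and 132 CPM (-1.38), the GTPase Igtp 45.0 and 20.8 CPM (-1.11) and Ifi27l2a 60.4 and 11.3 CPM (-2.42). H2-D1, a class I MHC chain and the most abundant gene, had 13444 and 7066 CPM (-0.93). The levels of these genes also lay apart between the sexes. Isg15 had 599.6 CPM in male and 123 CPM in female vehicle members, and 88.4 and 423.5 CPM in male and female teriparatide members. H2-D1 had 16374 and 9971 CPM in male and female vehicle members. In male cells 13 of 21 genes were lower, against 2.41% of all genes there, and none higher, with a median of -1.09. In female cells none of 11 was lower, against 9.11%, and 2 were higher, against 3.48%, with a median of 0.12 from 6 teriparatide cells. The medians of the list in other classes were -0.16 in the preosteoblast-type, 0.05 in the osteoblast-type, -0.38 in the chondrocyte-type, -0.71 in the unclassified and -0.21 in the Ptprc-positive cells. In the chemokine and complement list 14 genes were compared, none was higher and Cxcl9, C2 and Cfb were lower, against 1.80% of all genes. Cxcl9, a chemokine induced by interferon-gamma, had 348 and 45.1 CPM (-2.95, -3.39 to -2.54), with -3.85 in males and 0.74 in females and a UMI in 66 of 149 and 18 of 83 members. C2 and Cfb, components of complement, had 97.2 and 41.6 CPM and 104 and 39.0 CPM. Cxcl14, a leukocyte chemokine, had 1498 and 944 CPM (-0.67, -0.77 to -0.57).

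**Figure D4:**
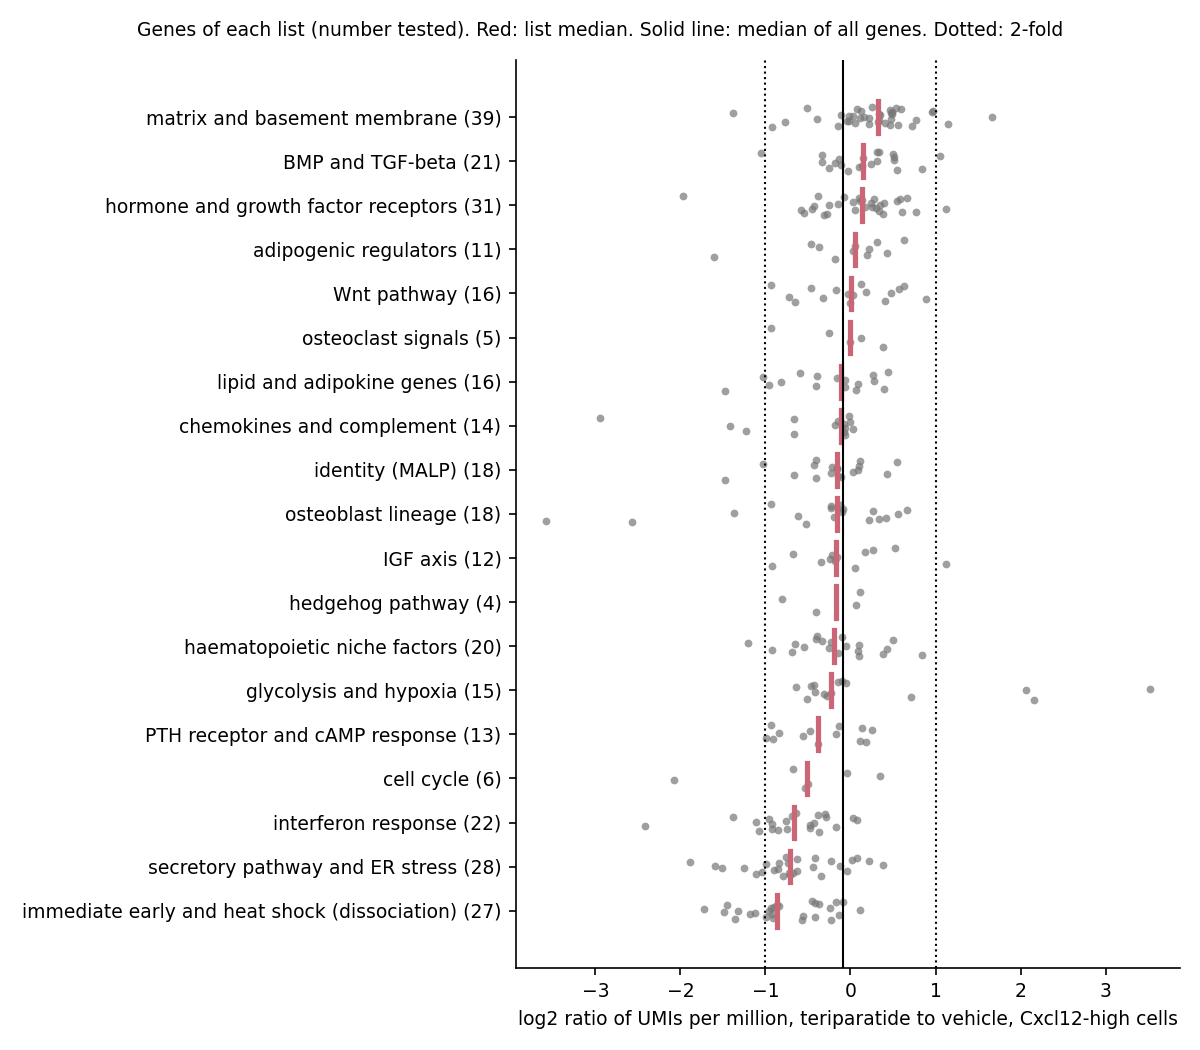
Log2 ratio of teriparatide to vehicle CPM for each gene compared, as points, in the lists with at least 4 such genes, with the list median in red, the median of all 4666 genes as a solid line and the 2-fold limits as dotted lines. The heat shock, ER and interferon lists have medians of -0.86, -0.72 and -0.66, and the matrix list one of 0.32.

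By the bound of the interval nearest to 0, the first 14 of the genes highest after teriparatide were Mt2, Col2a1, Mt1, Tef, S100a6, Aebp1, S100a8, Adm, Nr1d2, Fn1, Gm13411, Cbln1, Thbs1 and Tagln. Mt1 and Mt2, metallothioneins that bind zinc and respond to glucocorticoids and metals, had 71.4 and 297 CPM (log2 ratio 2.06, 1.76 to 2.36) and 8.79 and 101 CPM (3.52, 2.76 to 4.37). A UMI of Mt2 was seen in 9 of 149 and 37 of 83 members, and with cells thinned to 3000 UMIs in 1.34% and 21.7% of the members and in 0% and 0.531% of the Ptprc-positive cells. In male cells alone the ratio was 2.67 for Mt1 and 4.88 for Mt2. In female cells Mt1 had the other sign, at -1.23, and Mt2 had 12 UMIs with vehicle and 0 with teriparatide, too few for a ratio. The ratio of Mt1 was 2.72 in the preosteoblast-type, 2.59 in the osteoblast-type, 2.79 in the chondrocyte-type, 3.14 in the unclassified and 0.60 in the Ptprc-positive cells. S100a6, a calcium-binding protein, had 195 and 707 CPM (1.86, 1.68 to 2.04), and its lowest, median and highest members had 0, 1.35 and 16.1 UMIs per 10000 with vehicle and 0, 6.20 and 25.5 with teriparatide. The ratio of S100a6 was also above 0 outside the members. It was 1.28 in the preosteoblast-type, 2.09 in the osteoblast-type, 1.33 in the chondrocyte-type, 0.70 in the unclassified and 1.25 in the Ptprc-positive cells. Thbs1 (thrombospondin) had 157 and 454 CPM (1.53), Aebp1, a collagen-binding matrix protein, 49.97 and 198 CPM (1.98) and Adm (adrenomedullin, a vasodilator induced by hypoxia) 19.8 and 88.5 CPM (2.16). Tef and Nr1d2, transcription factors of the circadian clock, had 13.2 and 69.4 CPM (2.40) and 15.9 and 66.8 CPM (2.07), with 3.35 and 2.01 in males. Cbln1 had 150.4 and 436 CPM (1.54, 1.32 to 1.75), with a UMI in 67 of 149 and 62 of 83 members. Of 15 glycolysis and hypoxia genes compared, Adm, Mt1 and Mt2 were higher, against 1.80% of all genes, and none was lower. The glycolytic enzyme Gapdh had 553 and 447 CPM. Ribosomal protein genes took 8.59% and 13.5% of the members' UMIs. Of 83 compared 16 were higher, against 1.80% of all genes, and none lower, with a median of 0.53.

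Col2a1 and S100a8, genes of cartilage and neutrophils, also stood among the highest. Col2a1 had 18.7 and 102 CPM in the members, against 43026 and 42733 CPM in the chondrocyte-type cells. With cells thinned to 3000 UMIs, a UMI of Col2a1 was seen in 3.36% and 20.5% of the members and in 1.75% and 15.4% of the Ptprc-positive cells, which should lack it. Unthinned, the shares were 19.5% and 54.2% of the members and 8.77% and 49.6% of the Ptprc-positive cells. The level of Col2a1 in the members is therefore not read as expression. S100a8 had 18.7 and 85.9 CPM in the members, against 40943 and 99056 CPM in the Ptprc-positive cells, and 1 cell held 55.9% of the vehicle members' UMIs. All 3 myeloid genes compared were higher, against 1.80% of all genes. S100a9 and Fcer1g had log2 ratios of 1.30 and 1.07, but of 0.55 and 0.38 in male cells. The part of free RNA in the other ratios of the members was not tested.

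The 15 genes lowest after teriparatide were Bglap2, Cxcl9, Bglap, Cdkn1a, Ifi27l2a, Sdf2l1, Hspa5, Cebpb, Manf, Adipoq, Amy1, Vdr, Hspa1a, Rnf144a and Fam174b. Cdkn1a (p21, an inhibitor of the cell cycle that stress induces) had 211 CPM (191 to 234) and 50.3 CPM (38.2 to 65.0), a log2 ratio of -2.07 (-2.50 to -1.67) and of -1.54 in male cells. A UMI of Cdkn1a was seen in 103 of 149 vehicle and 24 of 83 teriparatide members. In cells thinned to 3000 UMIs the shares were 43.0% and 14.5% of the members and 28.1% and 23.3% of the Ptprc-positive cells. Its ratio was -0.38 (-1.17 to 0.41) in the preosteoblast-type, -1.11 (-1.29 to -0.94) in the osteoblast-type, -0.15 (-0.32 to 0.03) in the chondrocyte-type, -0.78 (-1.03 to -0.53) in the unclassified and -1.05 (-1.27 to -0.82) in the Ptprc-positive cells. Of 30 cell cycle genes 6 were compared, and Cdkn1a was the only one past 2-fold, against 1.80% of all genes each way. Cenpf and Hmmr of mitosis were at 0 UMIs. Amy1, amylase, whose counts may be split with its paralogs, had 91.1 and 23.4 CPM (-1.96), and Fam174b had 103 and 32.1 CPM (-1.69). Rnf144a, a ubiquitin ligase, had 179 and 57.2 CPM (-1.64), but 64.3 and 56.1 CPM in male cells (-0.20, -0.78 to 0.39). All 14 higher genes and 11 of the 15 lower genes were past 2-fold in male cells alone. The other 4 were Bglap, Bglap2, Vdr and Rnf144a.

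**Figure D5:**
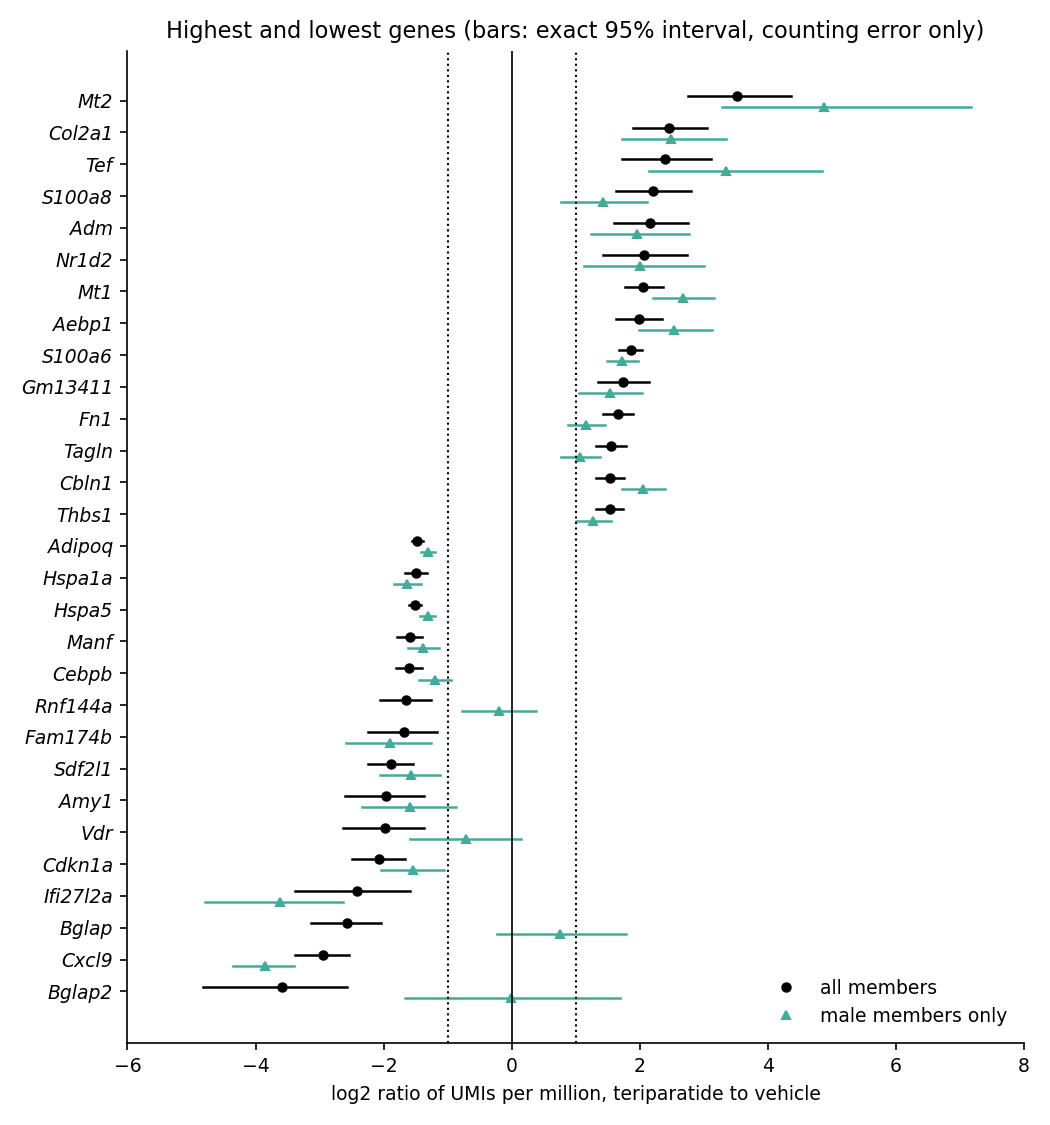
Log2 ratio of teriparatide to vehicle CPM for the 14 highest and 15 lowest genes, in all members (black circles) and in male members alone (green triangles), with exact 95% intervals of counting error and dotted lines at 2-fold. Rnf144a, Vdr, Bglap and Bglap2 lie within 2-fold in male members, Rnf144a at -0.20 and Vdr at -0.71.

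Members of the same library also varied among themselves. With cells thinned to 3000 UMIs, the ratio of the variance to the mean had a median of 1.42 and 1.44 over 382 genes with at least 1 UMI per cell, where counting alone gives about 1. The 10 most variable genes were Malat1, Igfbp5, Igfbp4, Fos, Jun, Ibsp, Gm42418, Hspa1a, Trf and Mmp13. Malat1, a nuclear RNA, had 43.2 and 37.8. Igfbp5, an IGF-binding protein of matrix, had 12.2 and 14.9, and its lowest, median and highest members held 0, 52.4 and 313 UMIs per 10000 with vehicle and 1.26, 43.6 and 206 with teriparatide. The variance ratios of Hp (7.12 and 7.37), Adipoq (4.08 and 4.50) and Lpl (4.02 and 3.28) were above those of Lepr (1.96 and 1.32) and Vcam1 (2.07 and 1.89). Esm1 had 3.08 and 2.16. At the same relative spread this ratio rises with the mean, so it does not rank genes of unlike level by spread. The means per thinned vehicle cell were 14.9, 9.38 and 10.2 for Hp, Adipoq and Lpl, and 3.42 and 4.74 for Lepr and Vcam1. In the teriparatide library the means of Adipoq and Vcam1 were alike, at 3.36 and 3.63.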

How the data were processed

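The authors aligned the reads of both 10x 3′ libraries to mm10 and counted UMIs per gene and barcode with Cell Ranger (2.1.0 per the labels, 3.1.0 in the matrix header). The deposited values are these raw counts for 27998 genes, 1286 vehicle barcodes with 10567335 UMIs (median 3622) and 2142 teriparatide barcodes with 26270041 UMIs (median 6217.5). The limits on genes and mitochondrial UMIs follow the study, and 483 and 1076 barcodes passed them and the UMI minimum. Doublets were not called. Leaving out the tenth of the members with most UMIs was an alternative. Classes were cut by single genes, so a class is a range and not a cluster. Counts were summed per library and class, and genes with at least 100 UMIs over both libraries were compared by a 2-fold rule. Thinning drew 3000 UMIs per cell without replacement. Named genes were the markers, the 20 leading genes, the 15 highest and 15 lowest genes, up to 4 genes with the ratios farthest from 0 and the most abundant gene of each list, and the 10 most variable genes. Hemoglobin, mitochondrial, ribosomal protein, X-inactivation and Y-linked genes could not enter the highest and lowest. Genes named beyond this rule, such as Xbp1, Atf4 and P4hb, were chosen after their values were seen. Some genes that the rule names are not reported here. The members and gene lists were chosen with earlier results of these data known. The code was tested on simulated data. Python 3.11.15, numpy 2.4.6, scipy 1.17.1 and pandas 2.3.3 were used.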

Additional observations from a re-analysis of the deposited data

Results flagged for a closer look

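Esm1 and Kitl had opposite signs in the sexes. The log2 ratio of Esm1 was 0.36 in female and -0.40 in male members, and that of Kitl -0.46 in female and 0.24 in male members. The female values rest on 69 vehicle and 6 teriparatide members, and the difference between the sexes was not tested.

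Barcodes with Cxcl12 at or above the threshold also lay outside the limits. There were 28 of them among the 803 vehicle barcodes that failed a limit, 12 by mitochondrial share, 17 by UMIs and 2 by genes, with a median of 2651.5 UMIs and levels of 2472 CPM of Adipoq and 785 CPM of Lepr. There were 13 among the 1066 such teriparatide barcodes, 9 by mitochondrial share, 5 by UMIs and 1 by genes, with a median of 3774 UMIs, 883 CPM of Adipoq and 412 CPM of Lepr. Of 379 teriparatide barcodes with a UMI of Ptprc that passed the limits, 2 were above the Cxcl12 threshold, and 0 of 57 in the vehicle library.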

How the results depend on the processing

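No paired analysis was possible because each condition had 1 library, and leaving out a replicate was not possible either. The difference in the share of cells that met the rule was -17.4 percentage points at a mitochondrial limit of 20% and -34.4 in female cells, against -23.1. The 84 higher and 84 lower of 4666 genes became 40 and 35 of 1140 in thinned cells (3.51% and 3.07%), 325 and 331 of 9385 at a minimum of 20 UMIs per gene (3.46% and 3.53%), 33 and 19 of 964 at 500 UMIs (3.42% and 1.97%) and 57 and 149 of 1636 in female cells (3.48% and 9.11%). Of the 103 genes followed, Bglap turned to 0.34 without the member in the osteoblast range and to 0.75 in male cells. Without that member Col1a1 moved from 0.34 to 1.38, and the osteoblast lineage had 1 higher and 1 lower gene instead of 0 and 3. Of the genes past 2-fold, 9 changed sign in female cells: Bst2 to 0.42, Cxcl9 to 0.74, Ifi27l2a to 0.69, Igtp to 0.38, Isg15 to 1.78, Klf2 to 0.37, Mt1 to -1.23, Nr1d2 to -0.21 and Smad7 to -0.998. Female ratios rest on 6 teriparatide cells. The minima of 20 and 500 UMIs per gene do not change a ratio and are left aside here. Under each other alternative all of the 30 highest and lowest genes stayed past 2-fold, with these exceptions. Without the osteoblast-range member 15 higher and 13 lower genes stayed, in male cells 15 and 11, and in female cells 7 and 12. The alternatives under which all 30 stayed included Cxcl12 thresholds of 50 and 200 per 10000, a minimum of 1000 UMIs per cell and both other scalings. The ratio moved outside its counting interval for 36 of the 103 genes in thinned cells and 27 at the threshold of 200. In male cells it did so for 55, and in female cells for 67 of 101. These counts leave out the genes past 2-fold that changed sign, 1 in male and 9 in female cells. In female cells Mt2 and Fcer1g had too few UMIs for a ratio. Centred on the median ratio or scaled without ribosomal and mitochondrial genes, 3 interferon and 5 ER genes were lower, Lpl and Tgfb3 were no longer 2-fold lower, and 4 matrix, 2 pericyte and 1 erythroid genes were higher. Depth limits genes under 100 UMIs. The cause of these changes was not tested, apart from the fewer cells or genes that a setting leaves.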

Other observations

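Some genes of the circadian clock were looked up after the values of Tef and Nr1d2 were seen. They follow no fixed list, so they are given as single genes and not as a group. Most were under 100 UMIs and so not among the genes compared. Dbp, a clock output gene, had 2.75 and 46.0 CPM (log2 ratio 4.07, 2.75 to 5.75), Per3 7.69 and 67.6 CPM (3.14), Nr1d1 6.04 and 38.2 CPM (2.66) and Per2 5.49 and 24.3 CPM (2.14). Per1, with 75 UMIs over both libraries, had a log2 ratio of only 0.70 (0.01 to 1.39). The activators Arntl and Npas2 had 13.7 and 4.34 CPM (-1.66) and 22.5 and 6.94 CPM (-1.70), the repressor Cry1 24.2 and 6.94 CPM (-1.80), and Clock 68.1 and 60.7 CPM (-0.17). The time of day at which the mice of either group were killed was not analysed here.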
